A study of Mus musculus with 563 samples.

Results

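In old Gfp-Lc3 mice, 10 genes with fewer reads in HI than in LO hematopoietic stem cells (HSCs) are described here, namely Tns2, Muc1, Psd, Runx1t1, Irf2bpl, Cd200r1, Chd7, Kdm4a, Tcp11l2 and Maf. They are 10 of the 46041 nuclear genes with an entry in the count tables, and were chosen by their difference between HI and LO cells, so that difference is given as a description only. Each deposited sample is 1 bone marrow cell labelled as an HSC, of genotype Gfp-Lc3 in all groups, isolated at steady state and sorted into a plate well. The groups are young cells and old cells labelled LO, MID and HI, where the level of the GFP-LC3 reporter was recorded at sorting, but no label says what the names LO, MID and HI rank. The labels give no age in weeks, animal, pool or promoter of the transgene. Of 563 cells in 2 count tables, 533 were kept. Young cells numbered 63 in the first table and 71 in the second, LO cells 65 and 71, MID cells 68 and 66, and HI cells 68 and 61.

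HSCs are rare, mostly resting cells that renew themselves and give rise to all blood lineages, and with age their number in the marrow rises while their output shifts. Autophagy delivers cell contents to the lysosome, and LC3 is a protein of the membrane that encloses the contents, so a GFP-LC3 fusion marks that membrane. The 10 genes have unrelated roles. Tns2, Muc1, Psd and Cd200r1 act at or near the cell membrane, Runx1t1, Irf2bpl, Chd7, Kdm4a and Maf encode nuclear proteins, and Tcp11l2 encodes a protein whose function is little known.

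The sequences before the transcription start are shown for the 3 genes in which at least 1 of 10 searched motifs was found, and for Muc1, which had the largest difference between LO and young cells. RefSeq's promoter table (GRCm38.p6) held entries for 6 of the genes, namely Tns2, Muc1, Psd with 2 starts, Irf2bpl, Kdm4a and Tcp11l2, each from 250 bases before to 50 after a start. Each line below holds the 250 bases before the start, 5′ to 3′ on the gene's strand, with motif matches in capitals and everything else in lower case.
Irf2bpl (chr12:86884815-86885064, minus strand): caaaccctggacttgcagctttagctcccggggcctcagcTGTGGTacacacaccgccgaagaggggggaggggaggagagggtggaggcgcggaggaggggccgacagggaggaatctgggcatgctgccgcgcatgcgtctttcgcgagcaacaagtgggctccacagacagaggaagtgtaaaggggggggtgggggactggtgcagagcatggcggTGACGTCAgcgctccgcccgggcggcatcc
Kdm4a (chr4:118180044-118180293, minus strand): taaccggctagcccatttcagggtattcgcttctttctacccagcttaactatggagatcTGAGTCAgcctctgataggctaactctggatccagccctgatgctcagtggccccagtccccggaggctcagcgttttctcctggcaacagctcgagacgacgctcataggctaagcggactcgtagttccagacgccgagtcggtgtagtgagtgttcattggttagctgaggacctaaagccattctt
Psd (chr19:46327157-46327406, minus strand): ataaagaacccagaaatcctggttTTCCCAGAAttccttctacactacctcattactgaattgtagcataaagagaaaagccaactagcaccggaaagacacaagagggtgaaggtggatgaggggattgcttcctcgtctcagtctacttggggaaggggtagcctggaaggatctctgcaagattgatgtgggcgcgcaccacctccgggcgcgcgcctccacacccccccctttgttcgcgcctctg
Muc1 (chr3:89228806-89229055, plus strand): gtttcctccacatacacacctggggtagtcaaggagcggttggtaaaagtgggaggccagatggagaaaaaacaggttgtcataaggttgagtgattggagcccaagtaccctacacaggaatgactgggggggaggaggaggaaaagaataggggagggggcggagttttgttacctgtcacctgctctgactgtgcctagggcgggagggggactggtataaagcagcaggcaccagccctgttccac
The motifs were searched on both strands of each 300-base window, and no matches overlapped each other. Of the 10 motifs, 4 had a match, and in the Irf2bpl promoter the capitals mark TGTGGT, the core of a RUNX motif, which 16.8% of the 32851 promoters in the table held, and TGACGTCA, the cyclic AMP response element (CRE), which 1.79% held. In the Kdm4a promoter they mark a match to TGANTCA, the core shared by AP-1 and MAF motifs, held by 7.81% of promoters. In the Psd promoter they mark a match to TTCNNNGAA, the STAT motif, held by 8.30%. The 7 windows held no match to the other 6 motifs. These were AGATAA for GATA factors (in 11.2% of all promoters), CCGGAAG for ETS factors (8.86%), and TTTCCCGC for E2F factors (1.07%). The others were TTTGAA, the cell cycle homology region (17.9%), TGTTTAC for FOXO factors (3.65%), and TCACGTGA, the core of the lysosomal CLEAR element (0.974%). No motif was found in the windows of more than 1 of the 10 genes. A match is a description of letters, not a binding site.

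A level is the sum of a gene's reads in the kept cells of 1 group in 1 table, given as counts per 1e6 nuclear gene reads (CPM) after scaling for composition. Differences are on the scale log2(CPM + 1), HI minus LO unless another pair is named, taken within each table and averaged, and a pair in brackets gives the first and then the second table. Since the labels name no animals, a group counts as 1 sample, and nothing here was tested between groups. Intervals are exact at 95%, by Poisson for sums of reads and by Clopper-Pearson for shares of cells. Both cover counting error only, since these reads carry no molecular identifiers and cells of 1 animal are not replicates. A gene meets the size rule when its difference is at least 1 in size, is at least 0.58 in the same direction in each table, and the group with more reads reaches 20 CPM. In each table, 20% or more of the cells of that group must also have a read, and no single cell may hold over 20% of its reads. Of 9751 named genes above the filter on low levels, 41 (0.42%) met the rule as lower in HI, and all 10 genes passed the filter and are among the 41, which is how they were chosen.

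Several features of the groups stand beside these levels. Kept cells held 50339 to 1064879 nuclear gene reads, and the median ran from 254723 in MID to 340529 in HI cells. Per spike-in read there were 46.9 to 50 gene reads in young, LO and MID cells and 70.3 in HI cells. The 12 HSC markers all passed the level filter and summed to 3495 (HI) to 4133 CPM (LO), while no list of markers of a mature cell type summed to more than 395 CPM (endothelial markers, young cells). The 6 T and NK cell markers, for example, summed to 28.6 (young) to 53.35 CPM (HI), nearly all of it Nkg7, a gene of cytotoxic granules, and Cd3e, a part of the T cell receptor complex, had no read in LO. Reads of the eGFP sequence were lowest in LO cells (399 CPM) and ranged from 831 to 972 CPM in the other groups. In the second table every young cell, 71 of 71, reached 20 reads of Xist, an RNA made from an inactive X chromosome. Of 63 young cells in the first table, 57 reached 20 reads of Y-linked genes, as did 57 of 65 and 62 of 71 LO cells in the first and second tables. Age and sex thus cannot be told apart in the second table. The main differences in level against young cells are given by table, while shares of young cells with a read pool the tables.

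Tns2 encodes tensin 2, a focal adhesion protein that links integrins to the actin cytoskeleton. It stood at 42.8, 44.8 and 16.1 CPM in LO, MID and HI cells of the first table and at 65.04, 29.12 and 12.37 CPM in those of the second. HI was the lowest group in both tables, while MID was level with LO in the first table and below it in the second. In young cells it was at 68.3 and 24.4 CPM, above LO in the first table and below LO in the second. With -1.83 (-1.36 and -2.31), Tns2 had the largest HI minus LO difference of the 41 genes lower in HI. It had 2123 reads in LO (interval 2034 to 2215) and 707 in HI cells (656 to 761).

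Muc1 encodes a mucin that spans the cell membrane and carries a large sugar-rich outer part. It stood at 53.2, 20.1 and 12.6 CPM in LO, MID and HI cells of the first table and at 37.6, 31.6 and 14.7 CPM in the second. LO was the highest group and HI the lowest old group in both tables. Young cells held 1.28 and 6.55 CPM, and 70.8% of their 171 reads came from 1 cell. Its HI minus LO difference was -1.64 (-1.99 and -1.30), and its LO minus young difference was 3.46 (4.57 and 2.35). A read was found in 30.1% of LO cells (41 cells, interval 22.6% to 38.6%) and in 4.48% of young cells (6 cells, 1.66% to 9.49%).

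Psd encodes an exchange factor that loads ARF6, a small GTPase of membrane traffic at the cell surface. It stood at 28.6, 20.7 and 9.10 CPM in LO, MID and HI cells of the first table and at 19.2, 9.83 and 6.33 CPM in the second. LO was again the highest and HI the lowest old group in both, and young cells, at 3.38 and 9.34 CPM, were below HI in the first table and above it in the second. The difference between HI and LO was -1.51 (-1.55 and -1.46), and -0.93 with a pseudocount of 10 CPM. Exons of Psd overlap those of Nfkb2, on the opposite strand, and the sources used here do not say which gene reads from the overlap were given to. Nfkb2 itself was at 54.6 CPM in LO and 47.8 CPM in HI cells, a difference of -0.13 (0.17 and -0.44).

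Cd200r1 encodes the inhibitory receptor for CD200, best known from myeloid cells. It stood at 43.7, 36.9 and 13.9 CPM in LO, MID and HI cells of the first table and at 45.9, 36.35 and 20.3 CPM in the second. MID was closer to LO than to HI in both tables, but in the second a single cell gave 34.1% of the MID reads. Young cells were at 41.3 and 23.9 CPM, level with LO in the first table and with HI in the second. The HI minus LO difference was -1.36 (-1.59 and -1.14).

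Among the nuclear proteins, Runx1t1 encodes ETO, a corepressor known as the partner of RUNX1 in a fusion of acute myeloid leukemia. It stood at 49.8, 26.02 and 17.05 CPM in LO, MID and HI cells of the first table and at 39.5, 32.2 and 14.1 CPM in the second, a difference of -1.46 (-1.49 and -1.43). Young cells were between MID and LO in the first table, at 33.2 CPM, and below every old group in the second, at 5.03 CPM.

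Irf2bpl, a RING finger protein related to the IRF2 binding proteins, stood at 76.1, 45.5 and 20.2 CPM in LO, MID and HI cells of the first table. In the second table the values were 73.2, 80.1 and 39.5 CPM, so MID was above LO there, with 26.3% of the MID reads from 1 cell. The HI minus LO difference was -1.37 (-1.86 and -0.88), and the tables lay further apart than for any other of the 10. Young cells were below all old groups in both tables, at 16.85 and 2.60 CPM.

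Chd7 encodes a chromatin remodelling ATPase, mutated in CHARGE syndrome. Its levels were 45.8, 32.5 and 12.9 CPM in LO, MID and HI cells of the first table and 37.9, 38.5 and 18.8 CPM in the second. LO and MID were level in the second table and HI was the lowest old group in both, with a difference of -1.36 (-1.75 and -0.97). Young cells were at 13.1 and 32.2 CPM, near HI in the first table and closer to LO in the second.

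Kdm4a, a demethylase of lysines 9 and 36 on histone H3, stood at 40.9, 35.2 and 16.7 CPM in LO, MID and HI cells of the first table and at 73.8, 38.7 and 27.1 CPM in the second. Young cells were at 25.7 and 39.9 CPM, between HI and LO in both tables. The difference between HI and LO was -1.33 (-1.24 and -1.41), and -0.76 when cells were thinned to 100000 reads.

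Maf encodes a large basic leucine zipper transcription factor. It stood at 37.4, 39.7 and 14.85 CPM in LO, MID and HI cells of the first table, and at 20.55, 8.70 and 8.31 CPM in the second. MID lay with LO in the first table and with HI in the second. Young cells, at 3.79 and 5.52 CPM, were the lowest group in both tables. With -1.24 (-1.28 and -1.21), Maf had the smallest HI minus LO difference of the 10. The exons of Maf overlap the antisense gene Gm15655, which had no read in any kept cell.

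Tcp11l2 is named for its likeness to TCP11, a testis protein. It was the most abundant of the 10 per length, at 46.9 CPM per kilobase of exon in LO cells, followed by Muc1 at 19.35 and Irf2bpl at 18.2, with Chd7 lowest at 3.04. It stood at 178.1, 108.7 and 78.8 CPM in LO, MID and HI cells of the first table and at 144.1, 110.7 and 49.7 CPM in the second. Young cells held 105.3 and 93.7 CPM. LO was the highest group and HI the lowest in both tables, with a difference of -1.34 (-1.17 and -1.52). The median cell held 88.2 CPM in LO, 46.2 in MID, 33.98 in young and 1.39 in HI, whereas the highest cell was at 967 CPM in LO and 502 in HI.

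**Figure D1:**
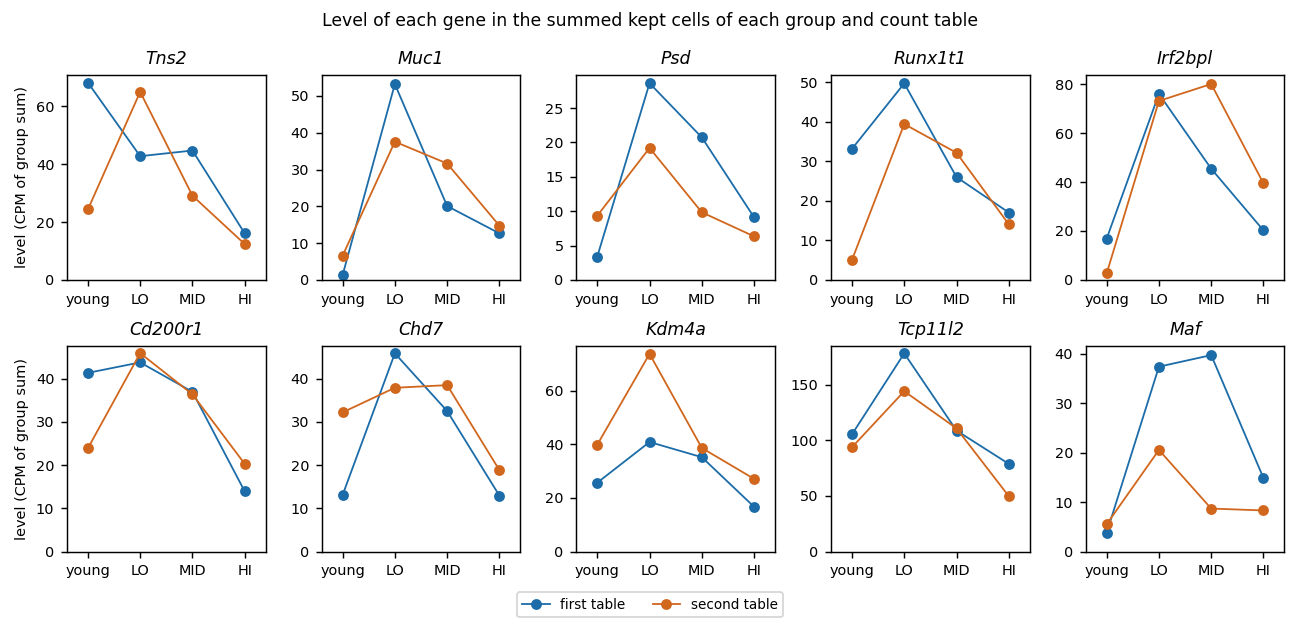
Level of each gene (CPM of the group's summed reads, linear axes from 0) in young, LO, MID and HI cells, with a point for each count table and lines that only join the points of a table. HI lies below LO for all 10 genes in both tables, as the choice of the genes sets, while the young level of Tns2 is 68.3 CPM in the first table and 24.4 in the second.

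The 10 differences ran from -1.83 to -1.24, with a median of -1.37, beside 0.03 over all genes above the filter. The genes are not the 10 lowest by rank. Ramp2 (-1.745), Dnm3 (-1.57), Cish (-1.33), Apol7e (-1.29), S1pr1 (-1.28) and Tinagl1 (-1.26) ranked above Maf, Plxdc2 (-1.21) came next after it, and Exoc6b (-1.01) was the last to meet the rule. With spike-in scaling the median of all genes moved to 0.51, and the 10 differences stayed below 0 with a median of -0.89 and the smallest at -0.78 (Maf). With every cell thinned to 100000 reads, 7 of the 10 still met the size rule, beside 0.359% of all genes, and Muc1, Irf2bpl and Kdm4a did not.

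MID cells took no part in the choice, but LO and HI cells did, so a MID level between them follows in part from the choice. All 10 genes were lower in MID than in LO by the mean of the tables, and 6 were lower in both tables (Muc1, Psd, Runx1t1, Cd200r1, Kdm4a and Tcp11l2), beside 25% of all genes. The MID minus LO differences had a median of -0.54, from -0.80 (Muc1) to -0.23 (Chd7), and 0 of the 10 met the size rule, beside 4 genes (0.041%) of all. Against MID, HI was lower for all 10 genes in both tables, beside 26.8% of all genes, with a median of -0.85. Chd7 alone met the rule there, at -1.13 (-1.27 and -0.99), beside 21 genes in all (0.215%). The order LO above MID above HI held for 8 of the 10 in each table, beside 18.4% and 16.85% of all genes, and for the same 6 named above in both, beside 4.50% of all genes in both. The comparisons with LO share the LO cells, and those with HI the HI cells.

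Young cells took no part in the choice either, but LO cells did, so a high LO level follows in part from it. LO was above young in both tables for 9 of the 10 genes, beside 27.2% of all genes, the exception being Tns2 (-0.66 and 1.38). The LO minus young median was 1.32, beside -0.02 over all genes. By the size rule 4 of the 10 were higher in LO, beside 1.38% of all genes. These were Muc1 at 3.46, Irf2bpl at 3.24 (2.11 and 4.36), Maf at 2.36 (3.003 and 1.73) and Psd at 1.86 (2.76 and 0.97). Runx1t1 reached 1.66, but 0.57 in the first table, below the bound of 0.58. In the first table, where most young and LO cells carried Y-linked reads, the median of the 10 was 1.245, and in the second it was 1.17. For MID the median over young was 0.91 (0.85 and 0.41), and 0 of the 10 met the rule, beside 1.06% of all genes.

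Between HI and young cells the genes went in both directions, with a median of -0.09 (-0.21 in the first and -0.36 in the second table) and a range of -1.47 (Tns2) to 1.87 (Irf2bpl). None of the 10 met the size rule between HI and young in either direction, beside 1.28% of all genes as higher and 0.779% as lower in HI. HI was above young in both tables for Irf2bpl (0.25 and 3.49), Muc1 (2.58 and 1.06) and Maf (1.73 and 0.51). It was below young in both for 5 genes, namely Tns2 (-2.02 and -0.92), Cd200r1 (-1.51 and -0.23), Tcp11l2 (-0.41 and -0.90), Kdm4a (-0.59 and -0.54) and Chd7 (-0.01 and -0.74). Over all genes HI was above young in both tables for 33.4% and below for 27.1%.

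To compare shares of cells with a read at 1 depth, every cell was reduced to 100000 of its nuclear reads at random, which left out shallower cells. Young cells then numbered 59 in the first table and 69 in the second, LO cells 57 and 66, MID cells 65 and 62, and HI cells 65 and 58. With the tables pooled, LO had the largest share for all 10 genes, which follows in part from their choice. Within tables it did not for Irf2bpl in the second (46.97% in LO, 48.4% in MID, 56.9% in HI), nor in the first for Cd200r1 (42.1% in LO, 43.1% in MID) and Maf (47.4% and 47.7%). In the first table the Kdm4a share was also level between LO (49.1%) and HI (49.2%). Tcp11l2 was read in 75.6% of LO cells (interval 67.05% to 82.9%), 64.6% of MID, 57.8% of young and 47.2% of HI cells (38.1% to 56.4%). Unthinned, the shares of Tcp11l2 were 75% in LO and 51.9% in HI. It was the only gene of the 10 whose LO interval lay above that of HI, as for 27 genes in all (0.277%), and for none did it lie above that of MID, beside 0.164% of all genes. Against young cells the LO interval was higher for 7 of the 10 (Muc1, Psd, Runx1t1, Irf2bpl, Chd7, Tcp11l2 and Maf), beside 3.72% of all genes. Maf was read in 42.3% of LO (33.4% to 51.5%), 37.8% of MID, 26.8% of HI and 13.3% of young cells (7.93% to 20.4%).

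For Irf2bpl and Kdm4a the LO and HI shares lay within each other's intervals, while the level in cells with a read was lower in HI. Irf2bpl was read in 51.2% of thinned LO cells (42.05% to 60.3%) and in 49.6% of thinned HI cells (40.5% to 58.8%). The median thinned cell with a read held 70 CPM of it in LO and 30 CPM in HI. Before thinning more HI cells (64.3%) than LO cells (60.3%) had a read of it, with HI cells the deeper ones. Kdm4a was read in 50.4% of thinned LO and 46.3% of thinned HI cells, and the median cell with a read held 50 and 30 CPM.

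**Figure D2:**
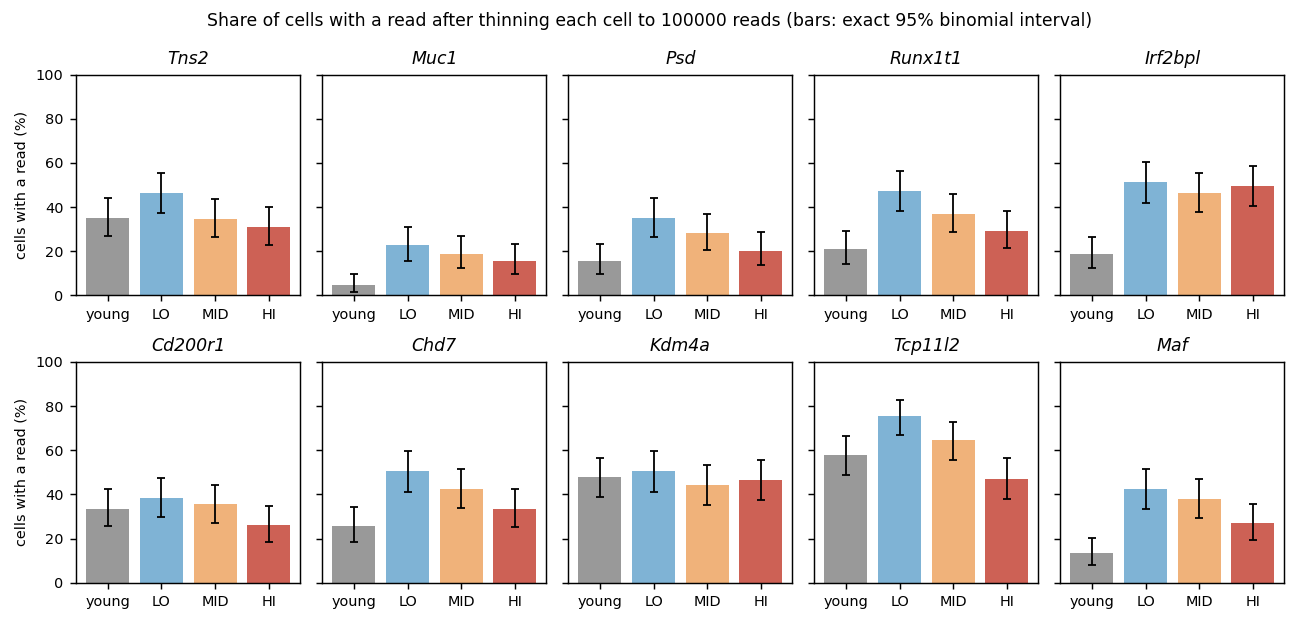
Share of cells with at least 1 read of each gene (%) after thinning each cell to 100000 reads, by group, with exact 95% binomial intervals for counting error. The tables are pooled. LO bars are the tallest in every panel, in part through the choice of the genes, from 22.8% for Muc1 to 75.6% for Tcp11l2. The LO and HI bars of Irf2bpl differ by less than their intervals.

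The genes with a read were also counted cell by cell. They were chosen as higher in LO than in HI in these same cells, so a higher count in LO follows in part from the choice and is a description only. In thinned cells the mean number of the 10 genes with a read was 4.59 in LO and 3.90 in MID cells, against 3.25 in HI cells and 2.73 in young cells, and no cell had a read of all 10. At least 4 of the 10 were read in 75.6% of LO cells (93 cells, interval 67.05% to 82.9%), 56.7% of MID, 43.1% of HI (34.2% to 52.3%) and 25% of young cells. By table these shares were 78.9% and 72.7% in LO and 46.2% and 39.7% in HI. Across the thinned cells of a group and table the 45 gene pairs had median Spearman correlations of 0.002 to 0.05. The highest for any pair in LO was 0.53, for Cd200r1 and Maf in the first table (57 cells that share 1 depth), and it was not the highest pair in the second. Correlations this weak in sparse counts are given as a description only.

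**Figure D3:**
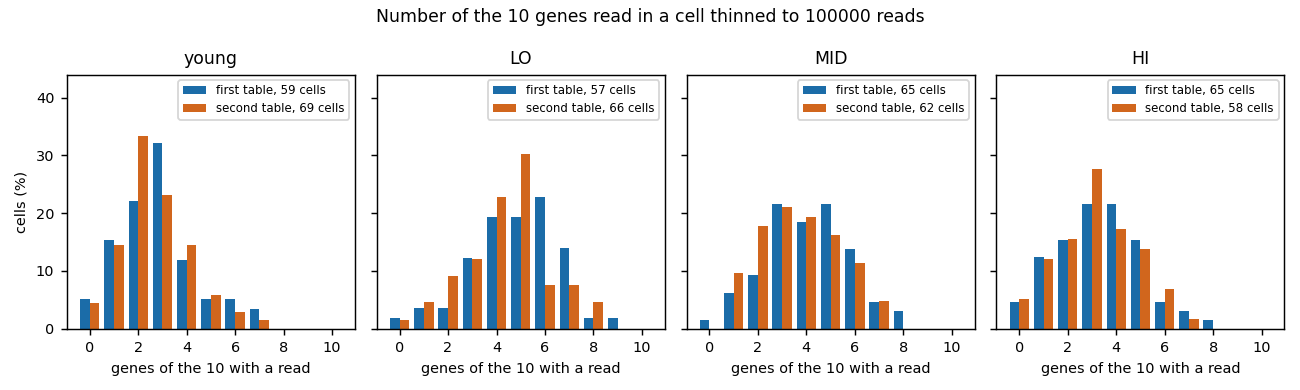
Share of thinned cells (%) by the number of the 10 genes with a read, for each group, with a bar colour for each count table. LO cells centre on 5 genes in the first table and 4.5 in the second by their medians, and HI cells on 3 in both. A higher count in LO than in HI follows in part from the choice of the genes.

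Cells with a read of Mki67 or Top2a, markers of the cell cycle, were more frequent in HI. Mki67 was at 140 CPM in LO and 703 in HI cells, and Top2a at 89.3 and 410. No read of either was found in 68 LO cells (50% of them), 66 MID (49.25%), 40 young (29.85%) and 29 HI cells (22.5%). Of these HI cells, 8 came from the second table. Such cells are not shown to be resting, since shallow reads can miss both genes. Their median depth was 224384 reads in LO and 292980 in HI.

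In the cells with no such read, the HI minus LO median of the 10 was -1.07 (-0.86 and -1.14 as medians of each table), beside -0.07 over all genes. Of the 10, 7 were lower in HI in both tables, beside 28.8% of all genes, and only Chd7 met the size rule, beside 0.626% of all genes. These are cells of the contrast that chose the genes, so the values describe and do not support it. Muc1 differed by -2.48 (-1.20 and -3.76), Tns2 by -1.89 (-1.03 and -2.76) and Chd7 by -1.65 (-2.32 and -0.98). In the second table all 10 Muc1 reads of HI and 92.1% of its 38 Chd7 reads came from 1 cell each.

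Maf and Tcp11l2 were close to level between these cells. Maf was at 25.85 CPM in LO and 23.5 CPM in HI, a difference of -0.13 (-0.07 and -0.19). Tcp11l2 was at 189 CPM in LO and 168 CPM in HI, a difference of -0.15 (-0.69 and 0.40), and was read in 49 of 68 LO and 23 of 29 HI cells. The tables also disagreed in sign for Irf2bpl (-1.55 and 0.58) and Kdm4a (0.28 and -1.64), and 1 cell gave 99.01% of the HI reads of Kdm4a in the second table. For the other genes the differences were -1.23 (Runx1t1), -1.19 (Cd200r1) and -0.95 (Psd).

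With cells called by reads of fewer than 8 of 29 G2 and M phase genes, 62 and 66 LO cells and 49 and 32 HI cells remained in the first and second tables. There all 10 genes were lower in HI in both tables, beside 24.87% of all genes. Their median was -1.41, beside 0.01 over all genes. Most LO and HI cells of the contrast that chose the genes remained, so this result follows in part from the choice. It describes that contrast and does not support it. By the size rule 6 of the 10 were lower, beside 0.318% of all genes. Maf (-0.67) and Tcp11l2 (-0.82) again had the smallest differences. Mki67 and Top2a reads were also looked for after thinning, and 80 LO and 42 HI cells had neither. There the median was -1.10, beside -0.04 over all genes, again in cells of the contrast that chose the genes. Chd7 was at -2.43, Tcp11l2 at -0.59 and Maf at -0.77. In the second table the HI value of Chd7 rested on 8 reads, 87.5% of them from 1 cell. The share of the 80 LO cells with a read of Maf was 47.5% (36.2% to 58.98%), and of the 42 HI cells 40.5% (25.6% to 56.7%).

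**Figure D4:**
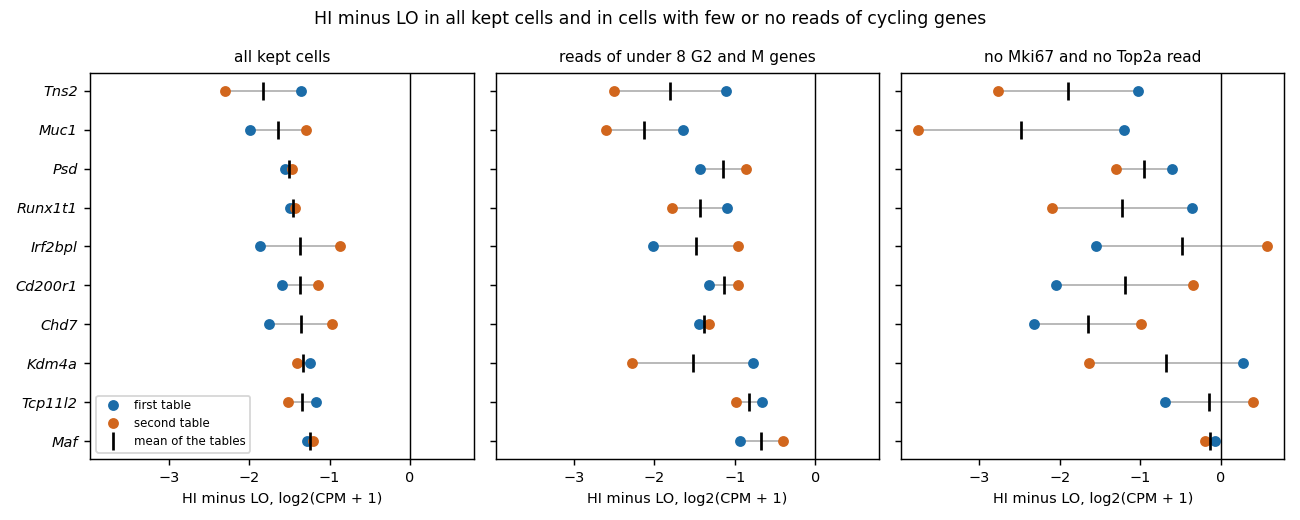
HI minus LO, as log2(CPM + 1), for each gene in all kept cells, in cells with reads of fewer than 8 G2 and M phase genes, and in cells with no Mki67 and no Top2a read, with a point for each table and a tick for their mean. In the last panel Maf (-0.13) and Tcp11l2 (-0.15) lie near 0 and Muc1 lies at -2.48.

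Within HI, cells with and without a read of Mki67 or Top2a were then compared. The genes were chosen as lower in HI than in LO, and most HI cells had such a read. A low level in those cells thus follows in part from the choice, and the values are a description only. Tcp11l2 was at 42.4 CPM in HI cells with an Mki67 or Top2a read and at 169 CPM in those without, with sums rescaled for this comparison, a difference of -2.04 (-1.29 and -2.79). Maf was at 9.08 and 23.5 CPM, a difference of -1.36 (-0.82 and -1.90). Psd (-0.91), Kdm4a (-0.61) and Irf2bpl (-0.61) were also lower in both tables, so 5 of the 10 were, beside 21.25% of all genes. The same count was 5 of 10 in young (beside 21.5%), 3 in MID (25.2%) and 2 in LO cells (21.25%). The median of the 10 in HI was -0.61, beside 0.15 over all genes. In the second table only 8 HI cells had no Mki67 and no Top2a read. Single cells among them gave 99.01% of the Kdm4a, 55.6% of the Psd, 50.65% of the Maf and 46.7% of the Irf2bpl reads. Inside LO the median was 0.01, with Tcp11l2 at -0.36 and Maf at 0.16 (1.09 and -0.77), and inside young cells it was -0.19, with Tcp11l2 at -0.84 (-0.78 and -0.89). In MID cells Maf went the other way, at 34.5 CPM with and 11.2 CPM without a cycling read, 1.36 (1.68 and 1.04).

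Genes related to the 10 by family or pathway are described here from 10 lists. The lists of relatives hold 93 other genes, of which 76 passed the level filter, and their median HI minus LO difference was -0.07, beside 0.03 over all genes. Of the 76, 29 were below 0 in both tables, a larger share than the 28.25% of all genes. Above 0 in both were 21, a smaller share than the 33.3% of all genes. By the size rule 0 of the 76 were lower and 1 was higher in HI, where 0.42% and 1.74% of all genes were, so neither count sets the relatives apart. That gene is Runx3, a transcription factor of the RUNX family, at 21.99 CPM in LO and 56.5 CPM in HI, a difference of 1.32 (1.39 and 1.24). In the list of ETO corepressors and RUNX partners the lowest was Cbfa2t3, a close relative of Runx1t1, at -0.49.

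Of the other tensins, Tns1 was at -0.53 and Tns3 at -0.10. Among the membrane mucins and sialomucins, Emcn was highest at 0.68 and Cd164 lowest at -0.05. Among ARF6 and its exchange factors, Iqsec2 was lowest at -0.83 (-0.65 and -1.01) and Cyth1 highest at 0.12. Of these, 5 of 9 were below 0 in both tables, beside 28.25% of all genes. Irf1, the interferon response factor, was at -0.77 and Irf2bp1 at 0.16. Of the genes around the CD200 receptor, the adaptor Dok1 was lowest at -0.76 (-0.55 and -0.97) and the adaptor Dok2 highest at 0.56 (-0.14 and 1.26).

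Among the CHD remodellers, Chd3 was lowest at -0.61 (-0.55 and -0.66) and Chd2 highest at 0.20. In the list of enzymes and readers of the histone marks that Kdm4a removes, Suv39h2, a methyltransferase, was highest at 1.03 (0.30 and 1.75) and Phf8, a demethylase, lowest at -0.47. Tcp11l1 was at -0.18, with opposite signs in the tables. In the MAF, BACH and NFE2 list, Bach2, a repressor, was lowest at -0.76 (-1.05 and -0.48) and Mafk, a small MAF protein, highest at 0.92 (1.02 and 0.81). By contrast, 10 of 29 G2 and M phase genes and 16 of 26 S phase genes above the filter were higher in HI by the size rule, beside 1.74% of all genes, with medians of 2.08 and 1.41. The part of this shift in the levels of the 10 genes was not tested beyond the cell subsets given above.

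**Figure D5:**
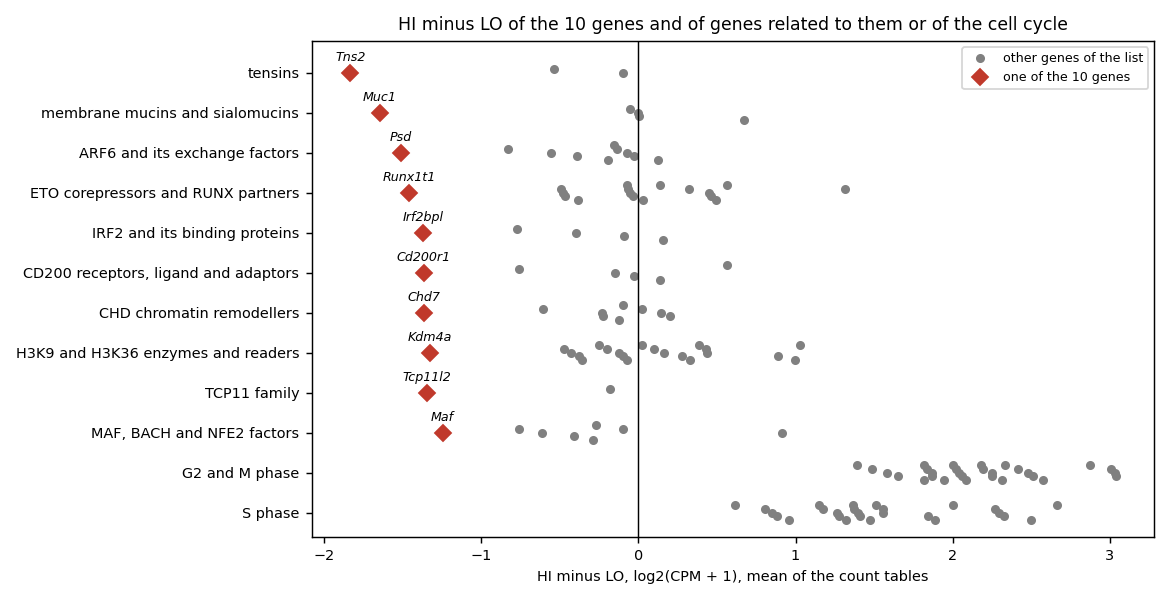
HI minus LO, as log2(CPM + 1) averaged over the tables, of each of the 10 genes (diamonds) and of the other genes of its list, with the G2 and M phase and the S phase lists below (points, offset only to keep them apart). The relatives lie between -0.83 and 1.32, and the cell cycle genes all lie above 0.

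Of 10 lists of markers of cell types other than HSCs and multipotent progenitors, 4 had a higher sum in LO than in HI cells in both tables, and their sums were low. The 6 dendritic cell markers summed to 32.6 CPM in LO (38.7 and 26.4), 18.7 in HI (18.2 and 19.2), 13.2 in MID (20.6 and 5.77) and 6.68 in young cells (6.76 and 6.60). Nearly all of this was Clec9a, at 30.3 CPM in LO, while Siglech and Itgax had no read in LO. The 7 neutrophil markers summed to 11.04 CPM in LO (12.2 and 9.85) and 3.53 in HI (4.41 and 2.65), none above the level filter. The 5 stromal markers summed to 9.70 CPM in LO (14.5 and 4.93) and 2.72 in HI (2.88 and 2.56), likewise. The 6 mast cell and basophil markers summed to 5.235 CPM in LO (6.24 and 4.23) and 3.14 in HI (2.56 and 3.72), with none above the filter. The part of these cell types in the levels of the 10 genes was not tested. Without the 281 cells that had reads of 3 or more markers of any of these 10 lists, Maf differed by -0.50 between HI and LO, while the other 9 genes ranged from -2.02 (Tns2) to -1.01 (Cd200r1). That left 64 LO and 51 HI cells. Megakaryocyte and platelet markers reached 3 in 44 LO and 62 HI cells, and endothelial markers in 33 and 27. Dendritic, neutrophil and mast cell markers reached 3 in no LO or HI cell. Eng, an endothelial marker, was read in 96.3% of LO and 99.2% of HI cells, so the cells left out are not shown to be of another type.

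All 10 genes are protein coding in GENCODE M21 (GRCm38). Tns2 (ENSMUSG00000037003) lies on chromosome 15 at 102100413 to 102116401, Muc1 (ENSMUSG00000042784) on chromosome 3 at 89229057 to 89233381 and Psd (ENSMUSG00000037126) on chromosome 19 at 46312087 to 46327156. Runx1t1 (ENSMUSG00000006586, 13743436 to 13893649), Chd7 (ENSMUSG00000041235, 8690406 to 8867659) and Kdm4a (ENSMUSG00000033326, 118136957 to 118180043) lie on chromosome 4. Irf2bpl (ENSMUSG00000034168) lies on chromosome 12 at 86880701 to 86884798, Cd200r1 (ENSMUSG00000022667) on chromosome 16 at 44765736 to 44794978, Tcp11l2 (ENSMUSG00000020034) on chromosome 10 at 84576626 to 84614359 and Maf (ENSMUSG00000055435) on chromosome 8 at 115682942 to 115707794. Apart from Psd and Maf, none had exons that overlap another gene.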

How the data were processed

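Single cells were sequenced after a modified Smart-seq2 protocol, as the labels state. Raw counts of reads per gene were deposited by the authors in 2 tables. The submitters' processing notes name the aligner STAR 2.7.3a and also Subread, featureCounts 2.0.0, DESeq2 and mm10. Of 46078 gene entries, 45229 matched GENCODE M21. Reads given to no gene made up 75.9% of the total, ambiguous reads 4.03%. Cells with under 50000 nuclear gene reads, under 1000 genes or over 20% mitochondrial reads were dropped (30 of 563). Wells held 1 sorted cell, and no doublet caller was run. Counts were added up into 8 sums and scaled to CPM with TMM factors (edgeR 4.0.16, R 4.3.3), without the 37 mitochondrial genes. The level filter was a mean of 10 CPM and a read in 10% of cells, which 10721 genes passed, 9751 of them named and not pseudogenes. Other steps used Python 3.11.15 with pandas 2.3.3, NumPy 2.4.6, matplotlib 3.10.9 and SciPy 1.17.1. The sums, level filter, differences and size rule were run on simulated counts with set differences between HI and LO, without the composition scaling. The other steps were not tested on simulated data. The 10 genes and all lists were chosen with earlier results of these data known. The relatives named met the size rule or had the highest or lowest difference of their list. Other examples were chosen after their values were seen. Alternatives were other scalings, pseudocounts, filters, depths and cell subsets.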

Additional observations from a re-analysis of the deposited data

How the results depend on the processing

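No paired analysis was possible because the replicate numbers in the labels number cells within a group, and no value comes from a test. No alternative that was run changed the sign of the 5 medians below or of any of the 10 genes' HI minus LO differences. A value counts as moved when it changed by more than the SD between the 2 tables. The HI minus LO median over the 10 genes (-1.37) moved to -0.89 with reads scaled to the spike-in, -1.07 with a pseudocount of 10 CPM, -1.67 without cells with 3 markers of another type and -1.52 in the first table alone. The MID minus LO median (-0.54) moved to -0.44 with the pseudocount of 10, -0.87 without the marker cells, -0.35 in the second table and -0.63 without each gene's highest cell of each sum. The MID minus HI median (0.85) moved to 0.41 with the spike-in, 0.66 with the pseudocount of 10, 0.74 as a mean of CPM per cell, 0.53 without the marker cells, 1.12 and 0.9991 in the first and second tables, and 0.97 without the highest cells. The LO minus young median (1.32) moved to 1.38 with the spike-in, 1.39 and 0.90 with pseudocounts of 0.1 and 10, 1.18 per cell and 1.17 when thinned. It was 1.245 and 1.174 in the 2 tables, 1.39 with old cells of 20 or more Y-linked reads, 1.46 without the highest cells, and 0.68 under a stricter filter that only Tcp11l2 passed. In cells with no Mki67 and no Top2a read the HI minus LO median (-1.07) moved to -0.87, -0.73 and -0.74 with the spike-in, the pseudocount of 10 and the mean per cell. It was -0.86 in the first table, -1.41 in cells with reads of fewer than 8 G2 and M phase genes, and -0.15 under the stricter filter. The 41 genes lower in HI became 4 with the spike-in, 19 with the pseudocount of 10, 16 under the stricter filter and 22 without the marker cells. They became 158 and 159 in the first and second tables alone, and 72 with the limit on a single cell set over both tables. The subset with Y-linked reads, the removal of the highest cells and the limit over both tables were chosen after seeing the data. The cause was not tested where the setting itself does not show it. With 29 HI cells without a cycling read, 8 of them in the second table, single cells set several of those levels.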
